A study of Rattus norvegicus with 40 samples.

Results

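Circulating T cells of 2 colonies of the Dahl salt-sensitive (SS) rat, both on HS chow, were compared for DNA methylation. The rats of the first group were Dahl SS/JrHsdMcwi (SS/MCW, called MCW here), and those of the second were Dahl SS/JrHsdMcwiCrl (SS/CRL, called CRL here). Both groups were 10 weeks old, had eaten the chow labelled HS for 3 weeks, and gave 4 libraries each, every library being a pool of 3 rats. All 33620 regions of the authors' deposited table for this pair of groups were taken, of 630893 regions in the 15 tables of the series. The series holds 40 reduced representation bisulfite libraries from 20 pools, each pool giving circulating and kidney T cells. The rats of its other pools ate the chow labelled LS, among them MCW rats of 7 weeks. HS and LS are read here as high and low salt. The labels say nothing else of the chow, so a difference in diet between the colonies cannot be told apart from the colony.

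The Dahl SS rat is an inbred strain in which blood pressure rises and the kidney is damaged on a high salt diet, and T cells that enter the kidney are known to add to that damage. Reduced representation bisulfite sequencing reads methylation at CpG dinucleotides in fragments cut at CpG-rich sites, and so covers many gene starts. In mammals most CpGs outside CpG islands are methylated, islands at active gene starts are not, and intermediate levels are typical of imprinted genes, where the copies from the mother and the father differ, and of the ribosomal RNA genes, where only some copies of a repeated unit are active.

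Regions held 5 to 287 CpGs (median 5), and 17159 of them carried 7096 gene names. The table gives the mean level of each group and no value per pool, so a spread between pools cannot be shown for any level below. The smallest possible p of an exact two-sided rank test over 4 and 4 pools is 0.0286, and the adjusted p-values in the authors' deposited table reach 1.46e-11. Their test therefore counts the CpGs within a pool as separate observations, and its p-values say nothing of rats beyond these pools. A region is called here where the table has an adjusted Mann-Whitney p under 0.05 together with a difference of 10 percentage points (points below) or more. Read depth per sample is unknown, and the lane of each library is not given. The cell label could be checked only in part: 4 of 10 T cell markers (Cd247, Cd2, Zap70 and Bcl11b) had regions. The start of Bcl11b, a transcription factor that keeps T cell identity, stood at 0.406% in MCW and 0.700% in CRL. Other T cell marker regions were methylated, up to 96.5% and 98.1% in the body of Bcl11b. An 80-CpG region of the B cell marker Pax5 was also low, at 1.04% and 1.11%, so the low Bcl11b start does not tell T cells from other cells. None of the 16 T cell marker regions was called, nor were any of the 16 regions of 2 B cell markers, the 8 of 5 myeloid markers or the 1 natural killer cell marker region. Their differences ran from -4.29 to 9.04 points in T cell markers, from -4.48 to 3.75 in B cell markers and from -3.08 to 14.8 in myeloid markers. The last value belongs to the start of Spi1, the myeloid transcription factor PU.1, at 44.1% in MCW and 58.9% in CRL, and the authors' deposited table gives it an adjusted p of 0.278. Of 5 erythroid and platelet markers none had a region, and the part of other cell types in the results was not tested.

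The methylomes of the colonies were close, and the regions that differed were mostly higher in CRL. The mean level over all regions was 41.0% in MCW and 41.4% in CRL, the median difference (CRL minus MCW throughout) was 0.306 points, and 88.9% of regions lay within 5 points. The authors' adjusted p was under 0.05 for 3744 regions, of which 1392 had a difference of 0, at levels no higher than 0.451%, so the p alone marks many regions with nothing to see. With the minimum difference, 374 regions were called (1.11% of those tested). Of these, 318 were higher in CRL (0.946%) and 56 were lower (0.167%). The median called increase was 15.0 points and the median called decrease was -12.1 points. Within 1 point of the threshold lay 50 regions inside, the nearest at 10.01 points, and 68 outside, the nearest at 9.97.

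**Figure D1:**
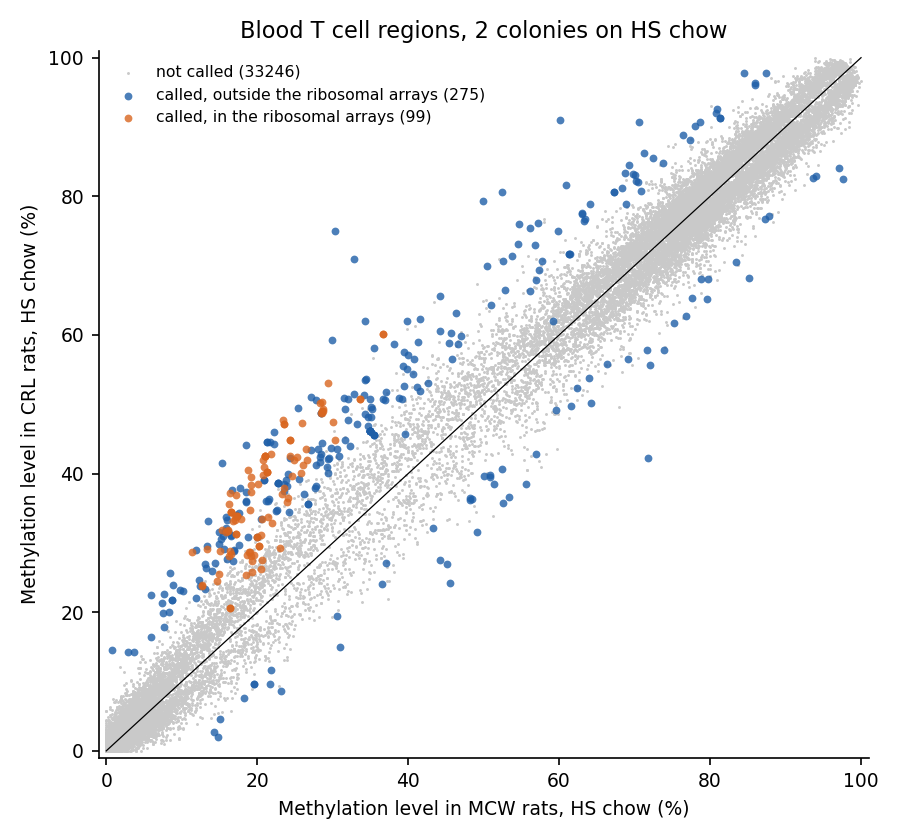
Methylation level of each region in CRL (vertical axis, %) against MCW (horizontal axis, %), blood T cells on HS chow, 1 point per region, with the line of equal levels. The 99 called regions in the ribosomal arrays and most of the other 275 called regions lie above the line, most of them at intermediate levels.

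Calls were most frequent at intermediate levels, with regions grouped by the mean of both colonies' levels. At 30% to 50% methylation, 10.0% of 1519 regions were called, 133 higher and 19 lower in CRL. At 10% to 30% the share was 5.24% of 2347 regions, with 115 higher and 8 lower. At 50% to 70% it was 1.41% of 3396, and at 70% to 90% it was 0.382% of 10203. Below 10%, where 13738 regions lie, 0.0437% were called. The median difference followed the same order, from 0.0591 points below 10% to 3.00 at 10% to 30% and 3.42 at 30% to 50%, then 0.996 and 0.552 in the next 2 classes. A difference of 10 points has little room near 0% and 100%.

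By the class in the table, 87 of 9791 regions at gene starts were called (0.889%), with 80 higher in CRL. Inside genes, 103 of 7368 were called (1.4%), 84 of them higher. Between genes, 184 of 16461 were called (1.12%), 154 of them higher. Gene starts are the class that the ribosomal arrays described next weigh on most: without the arrays 42 of their regions remained called (0.437%), against 85 inside genes (1.16%) and 148 between genes (0.906%). The called regions at gene starts were not typical of that class. All gene start regions had a median level of 1.09% in MCW and 1.27% in CRL, whereas the called ones outside the arrays had 28.3% in MCW and 41.1% in CRL. On LS chow the classes outside the arrays had shares called of 0.484%, 1.46% and 1.13% in the same order.

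Calls were dense in and around the ribosomal RNA genes. These genes encode the 45S precursor that is cut into the 18S, 5.8S and 28S RNAs of the ribosome and are repeated many times in the genome. Runs of regions with gaps of up to 20000 bp that held a region named Rn45s, Rn5-8s, Rn28s or Rn18s were treated as arrays. There were 4 of them in the rn5 assembly: chr1:13485264-13564800, chr5:95165386-95180706, chr6:39261838-39275105 and chr14:46808715-46864149. They hold 360 regions with 7193 CpGs, which is 1.07% of the regions tested. Of these, 99 were called, all higher in CRL, so that 27.5% of array regions were called against 0.827% of the 33260 regions elsewhere. Most regions elsewhere lie at levels where calls are rare. By the mean of both colonies, 3.19% of 2068 regions outside the arrays were called at 10% to 30%, and 7.51% of 1465 at 30% to 50%. The 99 array calls make up 26.5% of all calls and 31.1% of the increases.

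The difference ran through the arrays rather than through the called regions alone. The level was higher in CRL in 357 of 360 regions by the authors' difference. The median level was 19.0% in MCW (quartiles 14.7% and 21.6%) and 27.2% in CRL (20.5% and 31.9%), with a median difference of 7.16 points against 0.306 over all regions. Outside the arrays the median difference was 2.52 points at mean levels of 10% to 30% and 3.24 points at 30% to 50%. On chr1 30 of 119 regions were called, on chr5 23 of 78, on chr6 6 of 30 and on chr14 40 of 133. The median differences of these 4 arrays were 6.73, 7.30, 7.32 and 7.21 points. Among regions that MCW rats methylated at under 10% none of 31 was called, and their medians were 7.51% in MCW and 11.3% in CRL. At 15% to 20% in MCW, 40 of 111 were called, with medians of 17.4% and 25.7%.

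**Figure D2:**
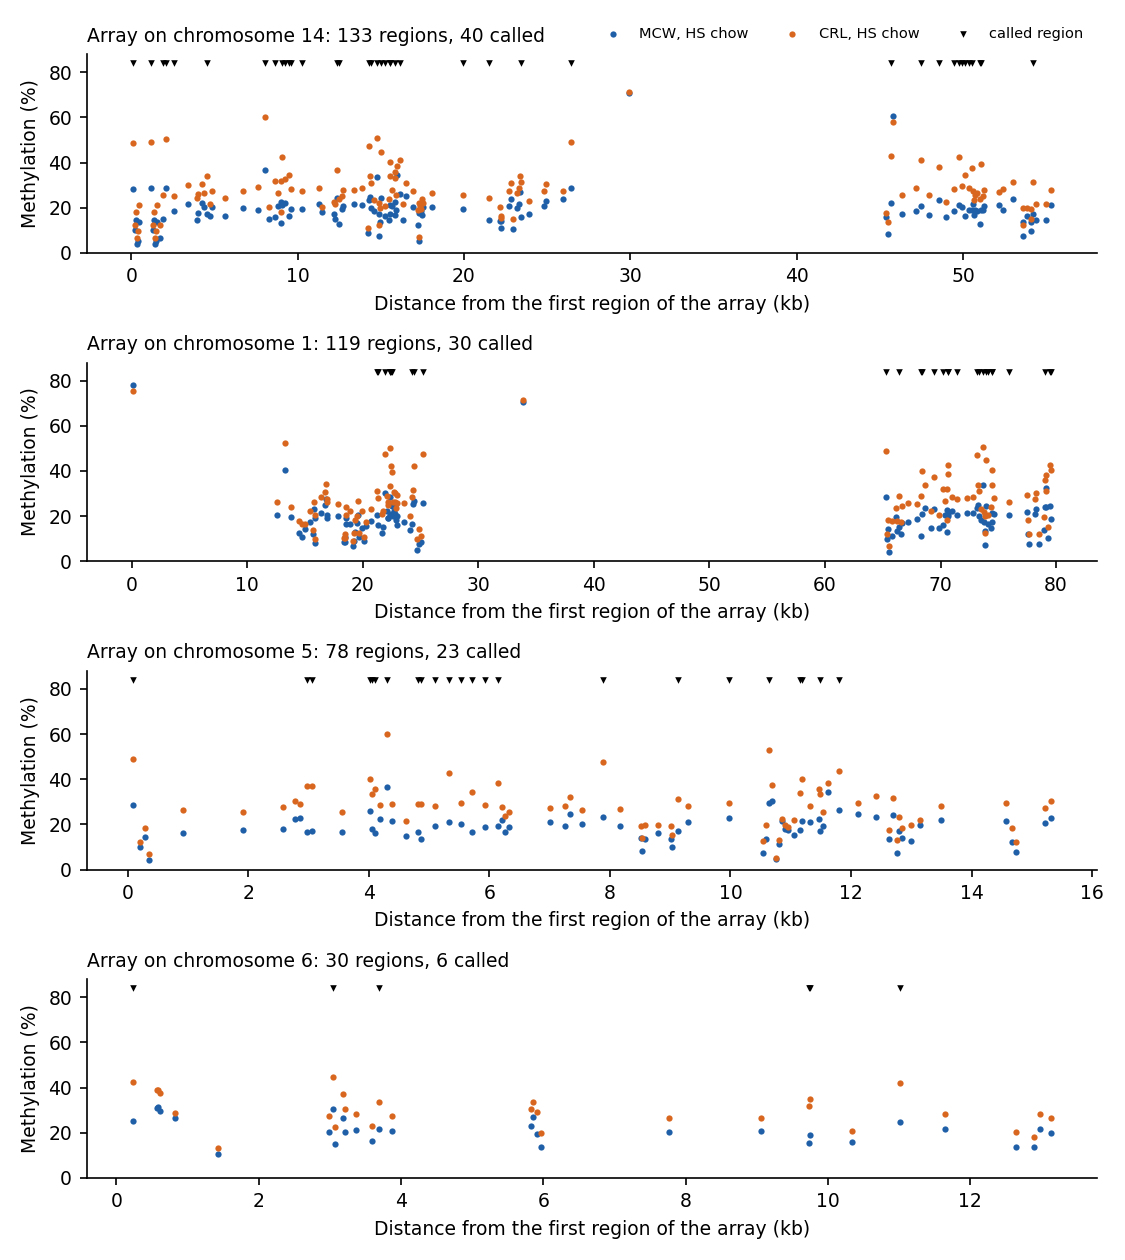
Methylation level (vertical axis, %) of every region of the 4 ribosomal arrays in MCW (blue) and CRL (orange) rats on HS chow, against distance from the first region of the array (horizontal axis, kb), with triangles over called regions. The orange points lie above the blue ones along each array, apart from a few highly methylated regions in the chromosome 1 and 14 arrays.

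By name, 29 of 117 regions of Rn5-8s (5.8S RNA) were called, with median levels of 19.2% in MCW and 27.2% in CRL. Of 21 regions of Rn45s (the 45S precursor) 5 were called, with medians of 20.6% and 27.5%. Of 10 regions of Rn28s 1 was called, with medians of 18.3% and 22.2%. The gene models LOC310926 and LOC257642, which lie within the arrays, had 29 of 95 and 2 of 8 regions called, and 123 array regions with no gene name had 36. Some regions carry several of these names and count under each. The region with the most CpGs in the table, 287, lies at chr14:46827268-46830101 and is named Rn28s and LOC257642. It had 19.3% in MCW and 25.8% in CRL, a gap of 6.53 points between the levels, beside an authors' difference of 16.3. The column thus does not always equal the gap between the 2 levels, which it missed by over 0.2 points in 3.81% of regions. Most of the 20 called regions with under 10 points between their levels lie in the arrays. Among them, chr1:13559969-13562332 had 20.6% and 26.2% beside an authors' difference of 14.9. Likewise chr1:13559183-13559631 had 16.4% and 20.6% beside 12.6. The array calls thus lean in part on that column. The largest array difference was at chr5:95173263-95173282, a 5-CpG region at the start of Rn5-8s, with 23.4% in MCW and 47.8% in CRL. Another, at chr6:39272758-39272954 with 32 CpGs, had 24.8% and 41.9%, and its adjusted p in the authors' deposited table, 1.46e-11, was shared by 16 called regions and is the smallest among them.

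Array copies are not independent measurements. The region at chr1:13558418-13558437 and the one at chr14:46822976-46822995 have the same CpG number, the same length and the same levels, 23.6% in MCW and 47.2% in CRL. Of the 99 called array regions, 25 had such a twin within 0.01 points, and they come down to 84 distinct patterns at that tolerance. It leaves near copies apart, such as the 9-CpG regions at chr1:13550441-13550606 and chr14:46808715-46808880, both with 28.5% and 48.7%. The 84 patterns are therefore not a count of independent signals. Outside the arrays 25 of 275 called regions had a twin and 262 patterns remained. Also, 2 called regions between genes, at chr14:46742270-46742435 (28.5% and 48.7%) and chr19:5824926-5825091 (28.5% and 48.7%), matched array regions in length, CpG number and levels within 0.5 points. How reads of repeated units were placed is not given in the sources used here, so the array levels are best read as those of a repeat family and not of 4 places.

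The arrays were also higher in CRL in the other colony comparisons. In blood on LS chow, from other rats, 90 of 422 array regions were called higher and 2 lower, with medians of 21.6% in MCW and 27.7% in CRL. In kidney T cells on HS chow, which come from the same pools, 72 of 453 were called higher and 0 lower, with medians of 12.5% and 15.7%. Over that whole table the called regions leaned the other way, 1812 lower (5.13%) against 179 higher (0.506%). In kidney on LS chow 45 of 466 were called higher and 0 lower, with medians of 10.8% and 13.9%, in a table with 827 regions called (2.16%), 632 higher (1.65%) and 195 lower (0.51%). Within a colony the medians on the 2 chows were closer. MCW blood had array medians of 21.9% on LS and 19.1% on HS chow with 0 of 446 regions called (0.468% over that whole table), yet 435 of the 446 were lower on HS chow. CRL blood had 28.1% and 27.5% with 1 of 531 called (0.402% over the table). Regions were cut anew in each table, so a counterpart in another table can cover more or fewer CpGs. Levels of the same group can also differ between tables where a region has the same ends: 93.6% of 3862 MCW levels and 89.6% of 4885 CRL levels on HS chow agreed within 0.01 points between this and the salt table, and the largest gaps were 7.80 and 17.5 points. These salt tables share libraries with the comparison above, and their levels stand only side by side. MCW blood on LS chow had array medians of 20.3% at 10 weeks and 15.5% at 7 weeks, with 7 of 325 regions called (0.664% over the table), all lower at 7 weeks, and 322 of the 325 were lower at 7 weeks.

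**Figure D3:**
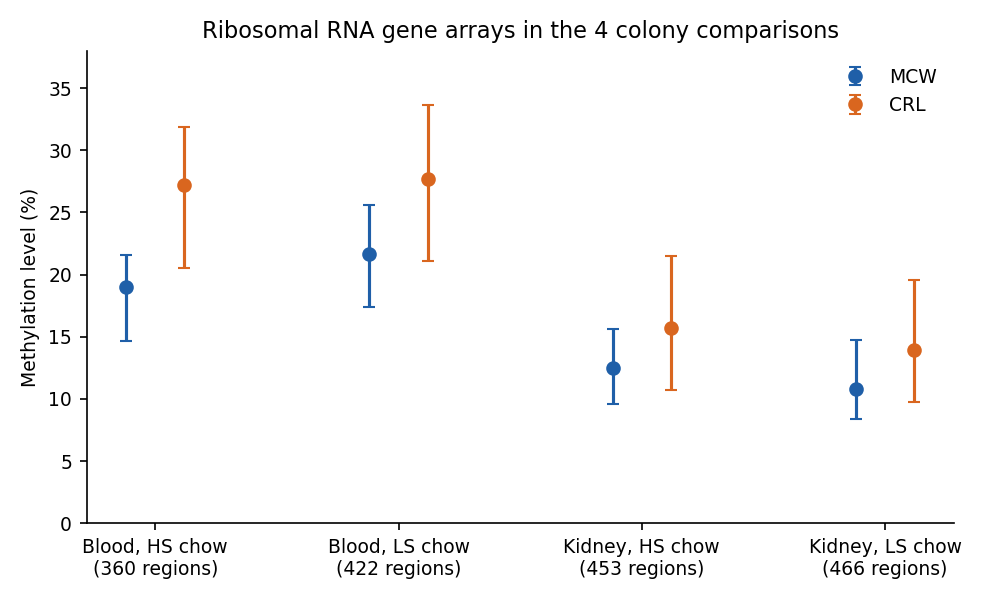
Median methylation level (%) of the ribosomal array regions in MCW (blue) and CRL (orange) in each of the 4 colony comparisons, with bars from the lower to the upper quartile of the regions, which show the spread over regions and not over pools. CRL lies above MCW in all 4, and blood lies above kidney.

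Outside the arrays 275 regions were called, 219 higher and 56 lower in CRL, and 127 of them carried 121 gene names. The largest increase of the table was between genes, at chr1:61419429-61419494, where 5 CpGs had 30.3% in MCW and 75.1% in CRL. The next was also between genes, at chr8:4308765-4308909, with 32.8% and 71.0% over 9 CpGs. On LS chow these 2 places had 43.0% against 77.7% and 44.7% against 75.4%, both called. A further 3 regions between genes were among the 10 largest increases: chr5:22717058-22717177 (49.9% and 79.4%), chr6:6640975-6641127 (52.5% and 80.6%) and chr4:20036831-20037030 (34.3% and 62.0%). The last had the opposite order on LS chow, 54.3% in MCW and 42.9% in CRL, and the authors' deposited table gives it an adjusted p of 0.147.

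The genes with the largest increases include a pair of receptor-type tyrosine phosphatases. In the body of Ptprs (chr9:9626801-9626825, 5 CpGs) the level was 60.1% in MCW and 91.0% in CRL. In the body of Ptprm, on the same chromosome at chr9:115022569-115022703, it was 15.3% and 41.6%, and on LS chow 16.7% and 23.8%, which was not called. Nfxl1, which encodes a zinc finger protein of the NF-X1 type, had 29.96% and 59.3% in its body (chr14:38043747-38043806), and 20.3% and 37.6% on LS chow where the authors' deposited table has an adjusted p of 0.0896. Shank3, a scaffold protein of synapses, had 18.5% in MCW and 44.2% in CRL over 11 CpGs of its body (chr7:130183084-130183142), and on LS chow 10.4% and 47.1%, called. A neighbouring Shank3 region of 45 CpGs (chr7:130183234-130183768) was called lower by the authors' difference of -11.3 although its levels, 59.2% and 62.1%, stand in the opposite order. It is the only called region with such a contradiction, and 20 called regions had under 10 points between their levels.

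Decreases were fewer and smaller, and none of the 56 passes the other test of the authors' deposited table, a q-value under 0.05 (the lowest was 0.13), whereas 64 of the 318 increases do. The q-value was 1 for each decrease named below. Of the genes outside the arrays that are named among the increases by the rule, the Igf2r body region, the 11-CpG Shank3 region, 2 start regions of Gnas and the 8-CpG Hoxaas3 regions pass it. Many of the largest increases failed it too. The q-value was 0.12 at chr1:61419429-61419494, 0.13 at chr8:4308765-4308909 and at chr4:20036831-20037030, 0.27 in Ptprs and 0.25 in Ptprm. Nfxl1 and the array region at chr5:95173263-95173282 also failed. Between genes, chr5:22717058-22717177 (0.024) and chr6:6640975-6641127 (1.2e-07) passed. The largest decreases were neighbours between genes on chromosome 3: chr3:150210272-150210307 had 71.8% in MCW and 42.3% in CRL, and chr3:150210179-150210233 had 45.6% and 24.2%. Further decreases between genes were at chr9:11337054-11337076 (45.2% and 26.9%), chr7:120439238-120439253 (55.6% and 38.4%), chr1:246928515-246928627 (85.2% and 68.2%), chr12:356009-356068 (44.3% and 27.6%) and chr4:6827707-6827740 (72.1% and 55.7%). Among genes, the start of Tektl1, a tektin-like gene that the table names Ccdc105, had 49.1% in MCW and 31.5% in CRL. The body of Zmynd15 had 52.6% and 35.8%. A region shared by Oplah, the 5-oxoprolinase of glutathione turnover, and Smpd5, a sphingomyelinase, had 53.3% and 36.6%, but 39.7% and 44.9% on LS chow, where it was not called.

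Whether a difference recurred was read from the colony comparison on LS chow, since it used other pools. That table had 433 of 34559 regions called (1.25%), 369 higher in CRL (1.07%) and 64 lower (0.185%). Of the 13284 regions with a counterpart there, 259 were called higher on HS chow, and 158 of these (61.0%) were called higher on LS chow. Counted from LS chow, 143 of 316 were also called on HS chow (45.3%). Outside the arrays the shares were 77 of 161 (47.8%) and 74 of 226 (32.7%). Among the 161, the difference was above 0 on LS chow in 146, with medians of 13.9 points on HS and 9.98 on LS chow. Decreases recurred less: 4 of 30 were called lower on LS chow, 20 of the 30 were lower there, and the median difference was -12.2 points on HS and -5.96 on LS chow. The difference in recurrence between the directions was not tested. Outside the arrays, 42 of the 191 called regions with a counterpart lay within 5 points on LS chow and 25 had the opposite sign.

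**Figure D4:**
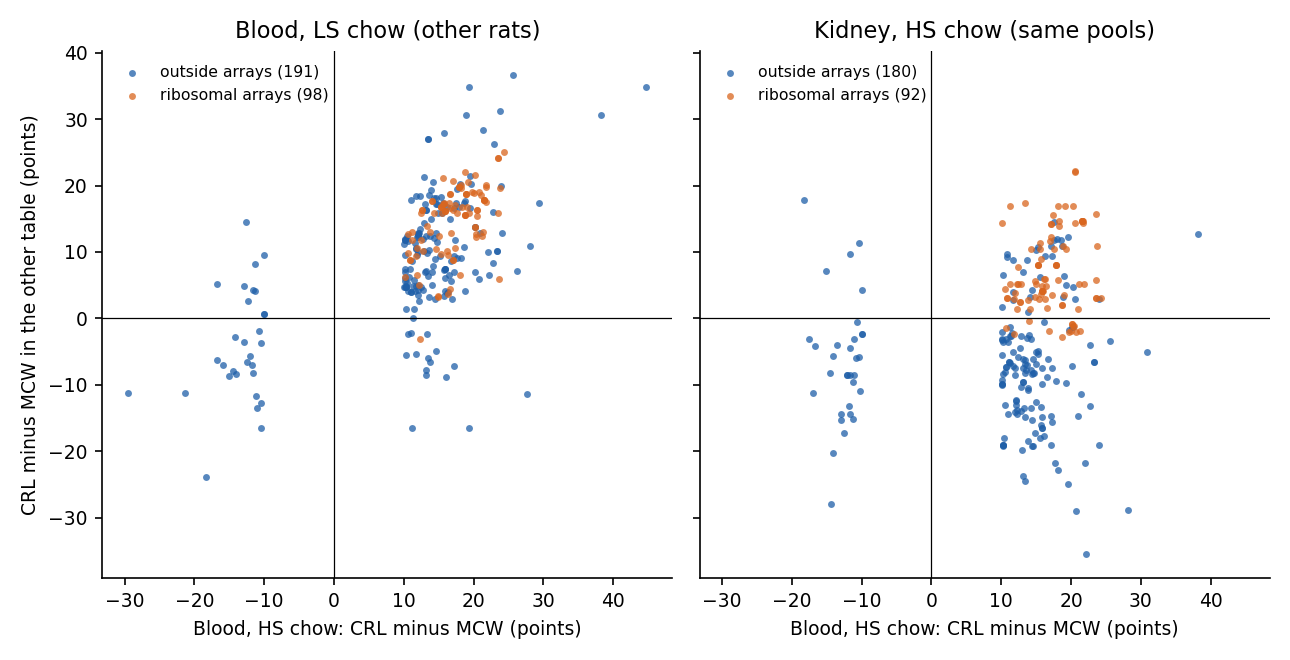
CRL minus MCW (points) in blood on LS chow (left) and in kidney T cells on HS chow (right) against CRL minus MCW in blood on HS chow, 1 point per region called in blood on HS chow with a counterpart in the other table. Most increases lie above 0 on LS chow, whereas in kidney the array regions (orange) lie mostly above 0 and the others (blue) mostly below.

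Of the 10 increases that recurred with the largest differences on both chows, 5 were between genes, 4 lay in the arrays and 1 in Shank3, and those not yet described follow. The region at chr5:161856688-161856771 had 22.2% in MCW and 45.9% in CRL on HS chow and 22.3% and 53.4% on LS chow. At chr10:104275463-104275544 the levels were 44.2% and 65.6% on HS and 38.5% and 66.8% on LS chow. At chr20:12546557-12546638 they were 27.8% and 50.6% on HS and 42.5% and 68.8% on LS chow. In the arrays, LOC310926 at chr14:46859773-46859795 had 19.2% and 39.5% on HS and 20.9% and 42.4% on LS chow. All 4 decreases that recurred are named here: chr9:11337054-11337076 (58.9% in MCW and 35.0% in CRL on LS chow), chr9:109955715-109955822 (94.0% and 83.0% on HS, 90.5% and 77.0% on LS chow), chr14:105665361-105665482 (59.6% and 49.2% on HS, 54.6% and 38.1% on LS chow) and the body of C8h11orf54 (66.3% and 55.9% on HS, 65.7% and 52.8% on LS chow).

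In kidney T cells of the same pools on HS chow the increases outside the arrays mostly did not recur. Over all regions that table had 1991 of 35347 called (5.63%). Of 148 regions called higher in blood and tested in kidney outside the arrays, 8 were called higher and 51 were called lower, and their median difference was 14.1 points in blood and -7.33 in kidney. The median over all regions tested in both tables outside the arrays was 0.358 points in blood and -1.20 in kidney. In the arrays, 40 of 92 were called higher in kidney, with medians of 17.1 points in blood and 5.19 in kidney. Of 32 regions called lower in blood, 10 were also called lower in kidney. On LS chow, in kidney T cells of other rats, the picture outside the arrays differed: of 103 regions called higher in blood on HS chow, 18 were called higher there and 1 lower, 54 were higher and 49 lower, and the median difference was 0.850 points.

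Imprinted genes were the gene list with the most calls. Of 40 genes on the list 27 were tested, in 103 regions, and 9 regions (8.74%) of 4 genes, Gnas, Igf2r, Meg3 and Zrsr1, were called higher in CRL, none lower. The median difference over the list was 1.34 points, against 0.306 over all regions. The list sits at intermediate levels (median 34.8% in MCW), where calls are frequent in general: at 20% to 60% in MCW, 6 of its 51 regions were called (11.8%) against 206 of all 3467 regions at those levels (5.94%), and the median differences were 2.75 and 2.88 points.

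Igf2r encodes the receptor that takes up insulin-like growth factor 2 for degradation and is expressed from the maternal copy in rodents. Of its 10 regions 2 were called. The 23-CpG region in its body (chr1:51547497-51547778) had 11.9% in MCW and 29.0% in CRL, and it is among the regions with the smallest adjusted p in the authors' deposited table, 1.46e-11. On LS chow it had 15.0% and 31.6%. In kidney T cells on HS chow the order was the opposite, 20.3% in MCW and 1.21% in CRL. At the start of the gene, chr1:51577324-51577357 had 16.7% and 37.7%, while the 8 further regions from chr1:51576809 to chr1:51577299 had differences between -4.63 and 2.43 points, at levels between 26.7% and 43.6%. The MCW level of the called region was thus lower than that of each region beside it. On LS chow a longer region that overlaps only part of it, and also its nearest neighbours, had 29.9% and 42.7%, called.

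Gnas encodes the stimulatory G protein alpha subunit and, from other starts of the same locus, imprinted transcripts. It had 20 regions on chromosome 3, the most of any tested imprinted gene, and 4 were called. At chr3:178440814-178441036 (17 CpGs) the level was 15.9% in MCW and 33.8% in CRL, at chr3:178441415-178441491 it was 34.4% and 53.7%, at chr3:178426682-178426768 it was 34.1% and 51.3%, and at chr3:178472134-178472164 it was 28.6% and 44.4%. The difference was above 0 in 15 of the 20 regions, with a median of 6.32 points and a range from -9.57 to 19.2. None of the called regions was called on LS chow, where not all had a counterpart. The region at chr3:178426682 had 48.1% in MCW and 40.8% in CRL there, the opposite order. The one at chr3:178472134 had 33.5% and 37.8%, the same order. Neither was called, and the other called regions had no counterpart. Beside chr3:178472134, the 16-CpG region chr3:178472172-178472309 had 23.3% and 32.2% on HS chow, just short of the threshold. On LS chow it had 12.3% and 27.4% and was called. In kidney T cells of the same pools on HS chow, the regions overlapping the 4 called ones were all lower in CRL. At chr3:178426682 the levels were 37.4% in MCW and 21.9% in CRL, called. They were 43.4% and 33.9% at chr3:178440814, 32.7% and 23.0% at chr3:178441415 and 34.4% and 24.5% at chr3:178472134, none called.

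Meg3, a maternally expressed long noncoding RNA, had 40.7% in MCW and 56.5% in CRL at 1 of its 2 start regions (chr6:142820360-142820432), and 38.5% and 45.8% on LS chow, not called. Zrsr1, a retrogene expressed from the paternal copy in rodents, had 2 of 8 start regions called. At chr14:107824620-107824758 the levels were 39.4% and 52.6% on HS chow and, in the opposite order, 50.3% and 42.5% on LS chow. At chr14:107827099-107827233 they were 34.7% and 46.9% on HS and 34.5% and 52.9% on LS chow, called in both. Among the other imprinted genes, the first of 5 regions of Grb10, an adaptor that restrains insulin signalling, had 30.4% and 40.1%, and Snrpn had 35.8% and 44.8%, both just short of the minimum difference. Igf2, the growth factor itself, had 4 regions with median levels of 1.63% and 1.59%. Peg3 and Nnat stayed within 3 points in all of their regions.

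In 6 lists of genes of T cell function 3 of 179 regions were called (1.68%), near the 1.11% over all regions. None of the 45 regions of 12 T cell receptor and identity genes was called (median difference 1.44 points, median levels 50.1% in MCW and 56.7% in CRL), nor any of 12 regions of cytokine and effector genes or 19 of cytokine receptors and JAK-STAT genes. Of 48 regions of helper and regulatory T cell transcription factors, 1 in the body of Gata3, which directs the type 2 helper fate, was called, with 13.1% in MCW and 26.9% in CRL (chr17:74118872-74118993, adjusted p 0.0476 in the authors' deposited table). Of 41 regions of activation and exhaustion genes, 1 was called, in the body of Nr4a3, a nuclear receptor induced by T cell receptor signals, with 16.0% and 33.3% over 11 CpGs. Neither had a counterpart on LS chow. Of 14 regions of trafficking genes, 1 was called, in Ccr7, the receptor that guides naive and central memory T cells into lymph nodes. It had 23.6% in MCW and 37.5% in CRL on HS chow and 23.7% and 38.7% on LS chow (chr10:86853256-86853329), both called. Outside the lists and chosen after its values were seen, Pik3cd, the delta catalytic subunit of the phosphoinositide 3-kinase of lymphocytes, had 32.0% and 47.8% on HS and 22.0% and 49.9% on LS chow.

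Among 49 regions of salt, renin-angiotensin and oxidant genes 2 were called (4.08%, against 1.11% over all regions). The median levels of this list were 12.2% in MCW and 18.0% in CRL. At mean levels of 10% to 30%, 5.24% of all regions were called, so the 2 calls show no surplus. Ncf1, the p47phox subunit of the NADPH oxidase, had 16.5% in MCW and 31.1% in CRL in its body. A region given to both Nr3c1, the glucocorticoid receptor, and Spry4, an inhibitor of receptor tyrosine kinase signalling, had 23.6% and 38.5% (chr18:32283447-32283566), and neither place had a counterpart on LS chow. In kidney T cells on HS chow the region overlapping that of Ncf1 had 10.4% in MCW and 4.24% in CRL. The region overlapping that of Nr3c1 and Spry4 had 50.6% and 61.0% there. No region was called in the DNA methylation machinery (19 regions of 12 genes, median difference 0), in homeobox regulators (246 regions of 59 genes, median 0.325 points), in clustered protocadherins (36 regions, median 3.14), in antigen presentation (11 regions) or in innate and inflammasome signalling (25 regions). Nor was any called in the wider lists for B cells, myeloid cells, natural killer cells or erythroid cells and platelets, with 17, 25, 6 and 11 regions. At 1.11% over all regions, lists of this size other than the homeobox list would hold under 1 call each at the overall share, so their zeros say little. The machinery, homeobox, innate, myeloid, natural killer and erythroid lists also had median MCW levels between 0.369% and 3.14%, where calls are rare.

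The antisense RNA gene of the HOXA cluster, Hoxaas3, is given 14 regions, of which 4 were called. They are 2 sets of twins on chromosome 4 with the same values. The 8-CpG regions at chr4:146839473-146839528 and chr4:146925268-146925323 had 21.3% in MCW and 44.6% in CRL, and the 25-CpG regions next to them had 26.7% and 35.6%. On LS chow the 8-CpG regions had 38.9% and 49.0%, called, and the 25-CpG regions had 39.0% and 43.0%, not called. Side by side, the CRL levels of the 8-CpG regions were 44.6% on HS and 49.0% on LS chow and the MCW levels were 21.3% and 38.9%.

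**Figure D5:**
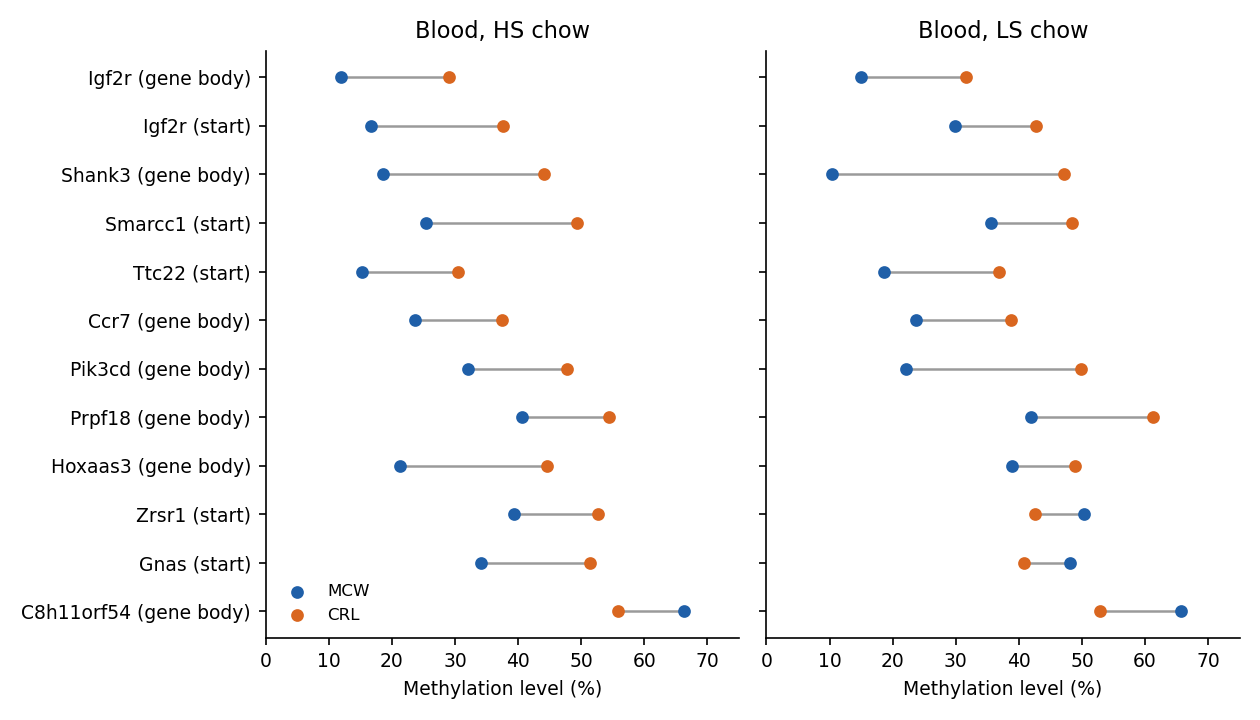
Methylation level (horizontal axis, %) in MCW (blue) and CRL (orange) for 12 regions called in blood on HS chow, on HS chow (left) and LS chow (right), with the class of the region beside the gene name. For each gene and class the first called region with a counterpart on LS chow is drawn. Igf2r, Shank3, Smarcc1, Ttc22, Ccr7, Pik3cd, Prpf18, Hoxaas3 and C8h11orf54 keep their order on LS chow, and the Zrsr1 and Gnas regions drawn do not. Zrsr1 and Gnas each have another called start region, not drawn, that keeps its order.

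Called gene starts lie in genes whose promoters are CpG-rich, as gene starts covered by this assay are in general. RefSeq promoters of the current assembly GRCr8, the 250 bases before the start, could be matched for 26 of 38 genes with a start region called higher outside the arrays and had a median of 20.5 CG dinucleotides. The 3638 matched genes of all tested gene start regions had a median of 18, and all 24206 promoters with a single entry had 6. Printed below are 4 of them, whose genes had a start region called higher in CRL on both chows, with each CG in capitals. They show how the CpG content of such starts ranges. The regions are in rn5 coordinates, so they cannot be placed on these windows, and a region classed as a gene start may lie outside its window.

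Igf2r: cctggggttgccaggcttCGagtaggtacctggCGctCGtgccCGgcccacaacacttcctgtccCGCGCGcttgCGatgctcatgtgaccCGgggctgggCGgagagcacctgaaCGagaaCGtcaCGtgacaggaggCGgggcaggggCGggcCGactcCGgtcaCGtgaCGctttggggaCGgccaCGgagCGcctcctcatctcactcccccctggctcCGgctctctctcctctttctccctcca

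Smarcc1: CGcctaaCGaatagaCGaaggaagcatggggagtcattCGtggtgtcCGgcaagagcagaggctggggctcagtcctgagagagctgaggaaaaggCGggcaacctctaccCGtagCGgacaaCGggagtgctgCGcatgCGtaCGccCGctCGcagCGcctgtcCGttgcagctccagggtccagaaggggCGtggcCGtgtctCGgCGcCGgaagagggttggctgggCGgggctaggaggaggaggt

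Ttc22: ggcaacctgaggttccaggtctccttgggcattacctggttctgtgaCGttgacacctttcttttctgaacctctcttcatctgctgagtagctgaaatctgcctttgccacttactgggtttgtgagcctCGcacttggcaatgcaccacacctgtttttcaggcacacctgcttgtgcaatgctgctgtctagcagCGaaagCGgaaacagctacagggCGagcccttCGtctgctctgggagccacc

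Ubfd1: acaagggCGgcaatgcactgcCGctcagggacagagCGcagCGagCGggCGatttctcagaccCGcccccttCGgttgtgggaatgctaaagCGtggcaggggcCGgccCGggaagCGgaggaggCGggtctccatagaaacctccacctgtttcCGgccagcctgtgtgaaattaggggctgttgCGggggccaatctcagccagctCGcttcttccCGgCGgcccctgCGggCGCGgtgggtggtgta

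In GRCr8 these windows are chr1:50526628-50526877 (Igf2r), chr8:118989306-118989555 (Smarcc1), chr5:126634899-126635148 (Ttc22) and chr1:186057184-186057433 (Ubfd1), all on the forward strand. The Igf2r window holds 23 CG dinucleotides, and 13.8% of promoters hold at least as many. Smarcc1 holds 22 (15.3% of promoters), Ubfd1 holds 21 (17.0%) and Ttc22 holds 6 (52.8%). The Smarcc1 start, of a gene for a subunit of the BAF chromatin remodelling complex, had 25.4% in MCW and 49.4% in CRL on HS chow and 35.6% and 48.5% on LS chow. The Ttc22 start, of a tetratricopeptide repeat protein, had 15.2% and 30.5% on HS and 18.6% and 36.9% on LS chow. The Ubfd1 start had 22.4% and 34.6% on HS and 20.2% and 33.0% on LS chow. In kidney T cells on HS chow Smarcc1 had 35.8% and 16.6% and Ubfd1 had 24.4% and 10.6%, the opposite order, while Ttc22 had 28.2% and 39.0%.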

How the data were processed

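Reduced representation bisulfite libraries of blood T cells from 8 pools of 3 rats were compared. Methylation levels are fractions between 0 and 1 per the file headers, group means made by the authors, and are printed in percent. The deposited table also holds the authors' difference as a fraction, p-values of a Mann-Whitney test with and without adjustment, the p-value of another test and a q-value. Recomputing the adjustment by Benjamini-Hochberg over all regions matched the column to within 5.55e-16. Per the submitters' processing notes, coordinates are in build rn5. Not given in the sources used here are the aligner, the caller and the start convention. The depth per sample is unknown, so no interval could be given.

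From these values the differences were oriented as CRL minus MCW, and calls were made by the rule in the text. Regions of 7 of the 15 tables were matched where they shared at least 1 bp. A call counted as also made in another table where any overlapping region was called there. Paired levels, differences and their medians took the largest overlap. The work used Python 3.11.15, pandas 2.3.3, NumPy 2.4.6 and SciPy 1.17.1. No model was fitted, since no table used holds values per pool, and replicates are pools as labelled. Of 7106 symbols, 6675 were current in the RefSeq table of GRCr8 and 333 matched by 1 synonym. The calling code was tested on simulated data for the rule of this comparison: of 200 changed regions among 5000, it called 200, with 0 false calls. That checks only that the code applies the rule as written. How often the rule misses or wrongly calls a region in these pools was not tested. Identical copies were sought among regions above 2% in MCW. The number of per-sample value columns not used was 0.

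The members, the 17 gene lists and the thresholds were chosen with earlier results of these data known. The rule for named regions took the 10 largest called increases and decreases, genes with at least 3 called regions, the 2 list members with the largest called difference in each list, the 10 regions called in the same direction on both chows with the largest smaller difference, and the 3 smallest adjusted p. Further imprinted gene regions and the genes of the printed promoters were added after their values were seen. Alternatives were other minimum differences, p limits, the q-value, a minimum of 10 CpGs, the gap between levels, autosomes, and a 50% overlap. Leaving out the arrays, counting copies once and joining arrays over 50000 bp were chosen after seeing the data.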

Additional observations from a re-analysis of the deposited data

How the results depend on the processing

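Among the regions called in this comparison, the surplus of those higher in CRL held under every alternative run, while the counts moved with the limits. With no minimum difference 2352 regions passed, 1607 higher and 745 lower; at 5 points 821 (678 and 143), and at 20 points 57 (55 and 2). With adjusted p under 0.01 there were 35 decreases. With the authors' q-value under 0.05 there were 64 calls, 64 higher and 0 lower, against 125 regions at least 10 points lower with a Mann-Whitney p under 0.05 before adjustment in the deposited table. With at least 10 CpGs 64 were called (58 and 6). Without the arrays and with identical copies counted once 207 increases remained, and 210 when arrays joined over gaps up to 50000 bp were left out. The number also called on LS chow, 158 higher and 4 lower, became 320 and 15 at 5 points, and 77 higher without the arrays. The number also called in kidney, 48 higher and 10 lower, became 15 and 6 with an overlap of at least 50%. Without the arrays it was 8 higher and 10 lower, so the surplus of increases did not hold for that count. Calls at gene starts fell from 87 to 42 without the arrays. These changes follow from the limits, the overlap asked for, the counting of copies once or the removal of array regions. With the gap between levels, 43 of 46 named regions kept their call and 3 fell under 10 points.

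No paired analysis was possible because the tables give group means and no value per pool. Leaving out a pool was not possible for the same reason.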
